A study of Mus musculus with 20 samples.

Results

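Splenic B cells with a deletion of TAK1 were set against wild type splenic B cells before any stimulation, which is the 0 h point of an anti-IgM time course. The comparison uses 4 of the 20 arrays of the series, 2 per genotype, chosen by their labels (unstimulated, either genotype). The TAK1-deleted cells carry the genotype label mb-1/TAK1f/f and the wild type cells mb-1/TAK1+/+. Both labels name mb-1, the gene now called Cd79a, whose promoter drives Cre recombinase in a common B-lineage deleter strain, and the labels do not spell out Cre. All mice were C57BL/6, 8 to 12 weeks old and labelled as of mixed sex. B cells were obtained by magnetic depletion of cells bearing CD43, a surface protein of T cells, NK cells, myeloid cells, plasma cells and B-1 cells, and medium with fetal serum is given as their culture. Any time in culture before the 0 h harvest is not stated, and neither is whether the 2 replicates of a group came from separate mice, so p-values measure the spread between replicate arrays, which may be technical. That spread was estimated over all 20 arrays of the series.

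TAK1, encoded by Map3k7, is a kinase that binds the adaptors TAB1, TAB2 and TAB3 and, downstream of the B cell receptor, Toll-like receptors and TNF-family receptors, activates the IκB kinase complex and the MAP kinases JNK and p38. The IκB kinases release NF-κB dimers, which switch on genes of survival, activation and inflammation. The spleen of the mouse is also a blood-forming organ, so besides B, T and NK cells it holds red cell precursors and young myeloid cells.

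Values are log2 intensities, and a difference is TAK1-deleted minus wild type on that scale, ± its standard error (SE), with 2 arrays per group. A gene was called at a limma adjusted p below 0.05 over the 11958 genes tested. The median SE was 0.161 and the median difference of all genes was 0.011. Replicate arrays correlated across genes, which are not independent replicates, with r of 0.982 in TAK1-deleted cells and 0.983 in wild type cells. The small number of arrays limits the precision. Background signal is not brought to 0 in these values, so the fold of a gene that is dim in one group can be understated.

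The arrays of the 2 genotypes did not match in sex. The Y-linked gene Eif2s3y had 4.71 and 4.63 in TAK1-deleted cells and 9.82 and 9.07 in wild type cells, and Xist, the RNA of the inactive X chromosome, had 13.03 and 13.01 in TAK1-deleted cells and 12.38 and 12.19 in wild type cells. Over all times Eif2s3y stayed between 4.63 and 4.89 in the 10 TAK1-deleted arrays and between 8.32 and 9.82 in the 10 wild type arrays. Xist stayed between 11.85 and 12.38 in the same wild type arrays. These thus held bright Xist beside Y-linked RNA, so they do not read as male alone. Whether cells of several mice were pooled is not stated. Sex-marking genes of the X and Y chromosomes were left out, but a sex difference in any other gene and a genotype difference cannot be told apart. In bulk RNA, fewer cells of a type and less RNA per cell cannot be told apart either.

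The labelled cell type was checked first. The 16 pan-B genes tested averaged 12.99 and 12.88 in TAK1-deleted cells and 13.02 and 12.86 in wild type cells, with none called. Ms4a1 (CD20) had 13.20 and 13.21 in TAK1-deleted cells, against 13.26 and 13.22 in wild type cells. Cd79a had 13.44 and 13.49 in TAK1-deleted cells, against 13.70 and 13.67 in wild type cells, and was not called (difference -0.22 ± 0.17).

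Without stimulation, 274 genes were called (2.29%), 179 higher in TAK1-deleted cells (1.5%) and 95 lower (0.794%). Of these, 104 differed by at least 2-fold, 74 higher and 30 lower. For all 274 the 2 arrays of one genotype lay outside those of the other, while over all genes 14.4% lay wholly higher and 11.2% wholly lower in TAK1-deleted cells. Both replicate pairs then give the same direction by necessity. These are the 4 arrays whose difference was called, so neither result, here or for the genes named below, is a separate check of the calls. With the replicate number as a block the count was 832 (489 higher and 343 lower; 6.96%, 4.09% and 2.87% of genes). From the 4 unstimulated arrays alone 146 genes were called, 134 of them among the 274. The count was 153 (80 higher, 73 lower) without TAK1-deleted replicate 1 and 114 (94 higher, 20 lower) without wild type replicate 1. With each array centred on its median it was 447, of which 247 were higher and 200 lower, so the share of higher genes was 55.3% there and 65.3% with the values as deposited.

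**Figure D1:**
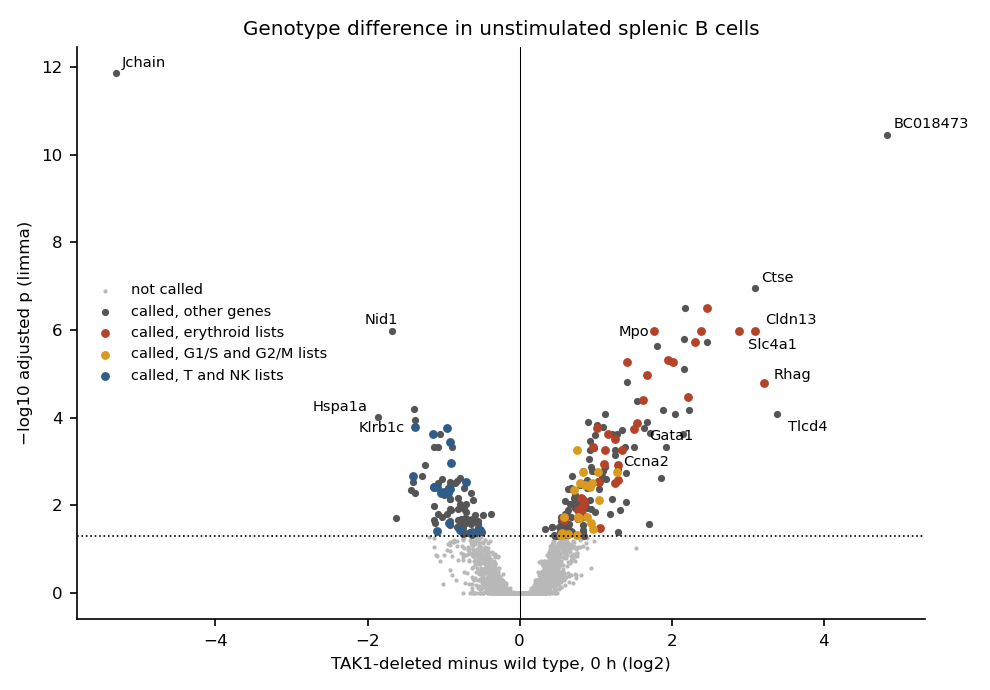
Each point is a gene, with the TAK1-deleted minus wild type difference at 0 h (log2) on the x axis and −log10 of the limma adjusted p on the y axis, and the dotted line marks an adjusted p of 0.05. Called erythroid genes lie to the right, between differences of 0.57 and 3.21, and called T and NK genes to the left, while Jchain (-5.31) and BC018473 (4.83) stand farthest from 0.

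**Figure D2:**
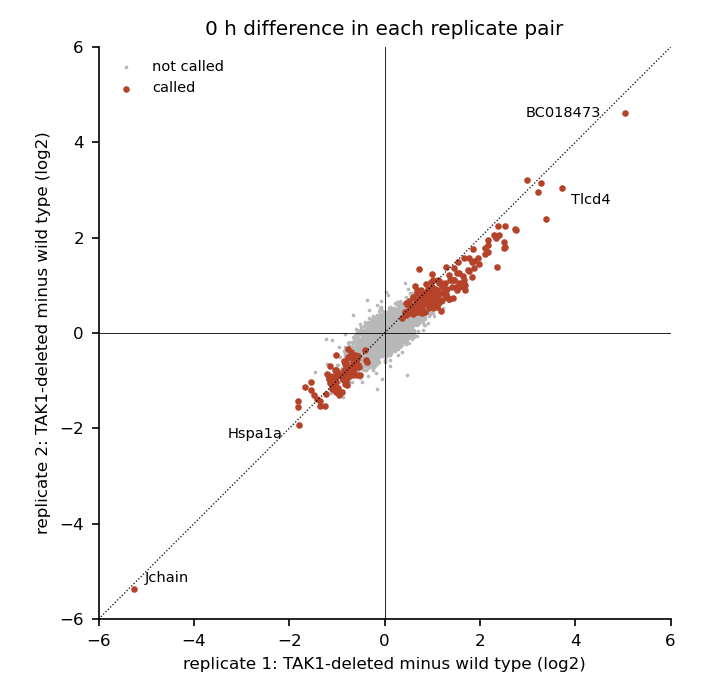
The difference in replicate pair 2 is plotted against that in pair 1 (both TAK1-deleted minus wild type, log2), one point per gene, with equal values on the dotted line. The 274 called genes have the same sign in both pairs, which are the arrays that made the calls.

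The largest block of genes higher in TAK1-deleted cells was erythroid. Of 63 erythroid genes tested in 3 lists, 36 rose and 0 fell, against 1.5% of all genes rising. Some passed the filter only through TAK1-deleted arrays, which favours rises over falls among them. Rhag, Rhd, Cldn13, Kel, Gata1, Alas2, Tfr2 and Hemgn were below the overall median (7.45) in every wild type array. Of 21 genes of the red cell membrane and its skeleton 15 rose, with a median difference of 1.41 over the 21. The 21 averaged 9.59 and 9.33 in TAK1-deleted cells and 7.92 and 7.96 in wild type cells, so no array of one genotype reached the other.

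Rhag, the ammonia channel subunit that holds the Rh complex in the red cell membrane, had 10.27 and 9.67 in TAK1-deleted cells, against 6.98 and 6.53 in wild type cells. Its difference was 3.21 ± 0.31 (9.28-fold, adjusted p = 1.621e-05). Rhd, its Rh antigen partner, had 9.51 and 9.11 in TAK1-deleted cells, against 6.76 and 6.94 in wild type cells (2.46 ± 0.16, adjusted p = 3.227e-07). Both Rh genes were thus dim in wild type cells and mid-range in TAK1-deleted cells. Slc4a1, band 3, the anion exchanger that anchors the skeleton, had 10.56 and 10.03 in TAK1-deleted cells, against 7.17 and 7.63 in wild type cells (2.89 ± 0.22, adjusted p = 1.038e-06). Cldn13, a claudin found in mouse erythroid progenitors, had 9.51 and 9.39 in TAK1-deleted cells, against 6.30 and 6.43 in wild type cells (3.09 ± 0.23). Kel, the Kell blood group protease, had 9.69 and 8.94 in TAK1-deleted cells, against 7.18 and 7.01 in wild type cells (2.22 ± 0.23). In these 3 genes both TAK1-deleted arrays were above both wild type arrays. Aqp1, a water channel, and Car2, a carbonic anhydrase, rose by 2.39 ± 0.18 and 2.31 ± 0.19.

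The haem and iron genes rose by smaller amounts. Of 20 tested, 13 rose, with a median of 0.79 over the 20. The count was 7 without TAK1-deleted replicate 1 and 6 without wild type replicate 2. Steap3, a ferrireductase of the transferrin cycle, had 10.36 and 10.06 in TAK1-deleted cells, against 8.52 and 8.56 in wild type cells (1.67 ± 0.16, adjusted p = 1.044e-05). Alas2, which catalyses the first step of haem synthesis in erythroid cells, had 8.11 and 8.08 in TAK1-deleted cells, against 6.96 and 7.0 in wild type cells (1.12 ± 0.16, adjusted p = 0.0005576). Tfr2, an iron sensor, and Cpox and Alad, enzymes of the same haem pathway, rose by 1.16, 1.11 and 1.02. Tfrc, the transferrin receptor that all dividing cells use, rose by 1.06 ± 0.25 (adjusted p = 0.03333), and its call was lost under 3 of the alternatives. The ferritin genes Fth1 and Ftl1 gave 0.06 and 0.05 and were not called. Globin genes were not analysed here.

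Of 22 erythroid factors and receptors, 8 rose, with a median of 0.39 over the 22; the count was 5 without TAK1-deleted replicate 1. Gata1, the transcription factor that directs red cell differentiation, had 8.84 and 8.55 in TAK1-deleted cells, against 7.08 and 7.23 in wild type cells (1.54 ± 0.18, adjusted p = 0.0001332). Klf1, which acts beside it on globin and membrane genes, had 8.99 and 8.45 in TAK1-deleted cells, against 7.30 and 7.55 in wild type cells (1.29 ± 0.20, adjusted p = 0.001221). Gfi1b, a repressor needed in erythroid and megakaryocytic cells, had 10.74 and 10.60 in TAK1-deleted cells, against 8.64 and 8.81 in wild type cells (1.95 ± 0.17, adjusted p = 4.815e-06). These 3 factors were separated by genotype in every array. Hemgn rose by 1.62 and the signalling adaptor Samd14 by 1.30. Epor and Tal1, the receptor of erythropoietin and a partner of GATA1, rose by 1.04 ± 0.17 and 0.77 ± 0.17 (named after their values were seen). Among the members not called, Kit gave -0.05, Nfe2 0.07, Ldb1 -0.02 and Ikzf1 0.00.

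**Figure D3:**
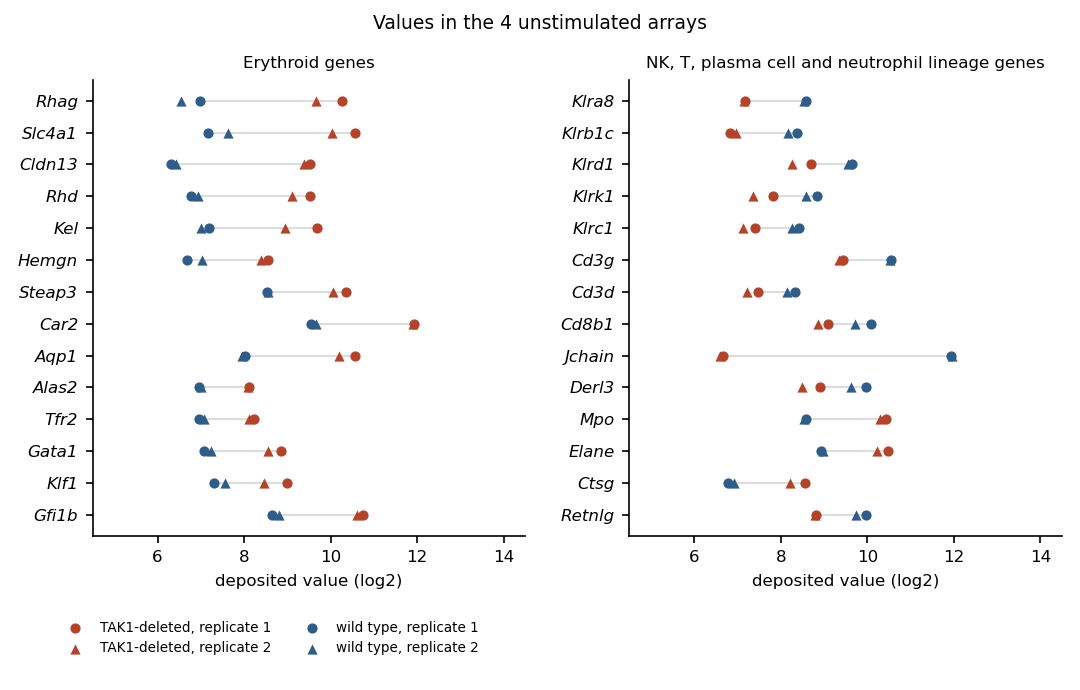
Deposited log2 values of 28 named genes in the 4 unstimulated arrays, circles for replicate 1 and triangles for replicate 2, with a grey line joining the genotypes within replicate 1. All 14 erythroid genes lie higher in both TAK1-deleted arrays, and Jchain has 6.67 and 6.59 in TAK1-deleted cells, against 11.93 and 11.95 in wild type cells.

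GATA1 binds short DNA words around GATA, and the start regions of the erythroid genes that rose were searched for AGATAA or TGATAA or AGATAG or TGATAG on both strands, in RefSeq windows of GRCm38.p6 (250 bases before to 50 after the start). Of the 36 genes 28 had a window, and 15 of the 28 (53.6%) held such a word, against 18.8% of the windows of 9576 tested genes and 30.2% of 27025 windows in all. A match is a description of letters, not a site. The 3 windows below belong to the genes with the largest rise that hold one, and the capitals mark the word as read on the gene's strand (TTATCA is TGATAA on the other strand). They lie at chr17:40810899-40811198 on the plus strand (Rhag), chr4:134864286-134864585 on the plus strand (Rhd) and chr6:41704276-41704575 on the minus strand (Kel).
Rhag: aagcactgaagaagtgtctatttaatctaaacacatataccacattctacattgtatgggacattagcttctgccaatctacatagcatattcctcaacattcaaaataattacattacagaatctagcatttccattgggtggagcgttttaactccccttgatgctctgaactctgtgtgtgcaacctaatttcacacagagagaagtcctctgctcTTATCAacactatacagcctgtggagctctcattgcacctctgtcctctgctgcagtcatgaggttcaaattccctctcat
Rhd: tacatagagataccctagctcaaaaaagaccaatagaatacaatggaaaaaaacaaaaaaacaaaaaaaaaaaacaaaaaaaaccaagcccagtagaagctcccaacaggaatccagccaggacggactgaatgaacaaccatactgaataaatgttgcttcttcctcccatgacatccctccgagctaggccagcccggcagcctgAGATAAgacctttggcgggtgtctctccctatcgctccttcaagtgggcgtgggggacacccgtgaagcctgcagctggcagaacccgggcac
Kel: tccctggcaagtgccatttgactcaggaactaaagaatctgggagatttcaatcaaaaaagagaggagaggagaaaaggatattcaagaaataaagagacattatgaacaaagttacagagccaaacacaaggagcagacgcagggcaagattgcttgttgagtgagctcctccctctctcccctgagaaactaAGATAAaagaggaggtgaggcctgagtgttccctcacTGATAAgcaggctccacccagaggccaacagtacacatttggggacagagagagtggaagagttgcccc

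Outside the lists, 117 genes rose and 63 fell. BC018473, a long non-coding RNA gene on chromosome 11, had 11.41 and 11.40 in TAK1-deleted cells, against 6.36 and 6.79 in wild type cells, the largest rise of all (4.83 ± 0.17, 28.5-fold, adjusted p = 3.51e-11). Ctse, the aspartic protease cathepsin E, had 13.13 and 13.07 in TAK1-deleted cells, against 10.15 and 9.84 in wild type cells (3.10 ± 0.19, adjusted p = 1.11e-07). Both genes were bright in TAK1-deleted cells, and for both the arrays of the genotypes did not overlap. Tlcd4, a TLC-domain protein gene, had 9.69 and 8.72 in TAK1-deleted cells, against 5.96 and 5.67 in wild type cells (3.39 ± 0.39). Pklr, which encodes the pyruvate kinase of liver and red cells, had 11.01 and 10.48 in TAK1-deleted cells, against 8.25 and 8.31 in wild type cells (2.46 ± 0.20). In both, TAK1-deleted replicate 1 was above replicate 2, and each was above the wild type arrays. Reep6, Jhy, Aldh1a1 (a retinaldehyde dehydrogenase) and Atp1b2 (a sodium pump subunit) rose by 2.16 to 2.23.

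Genes of the cell cycle were higher in TAK1-deleted cells by smaller amounts. Of 49 genes of G1/S and DNA replication 11 rose and 0 fell (median 0.39 over the 49, 48 of them positive), and with the replicate block 26 rose. Of 57 genes of G2/M and mitosis 9 rose and 0 fell (median 0.45, 53 positive), and with the block 28 rose. Over all genes 1.5% rose, and 4.09% with the block. Ccna2, cyclin A2, had 11.15 and 10.87 in TAK1-deleted cells, against 9.80 and 9.66 in wild type cells (1.28 ± 0.20, adjusted p = 0.001767). Rrm2, the ribonucleotide reductase subunit made in S phase, had 10.68 and 10.11 in TAK1-deleted cells, against 9.37 and 9.35 in wild type cells (1.04 ± 0.20, adjusted p = 0.007708). Both were higher in each TAK1-deleted array. Mki67, the proliferation marker Ki-67, rose by 0.72 ± 0.13, and Ccnb2, Plk1 and Cdk1, which drive mitosis, rose by 1.03, 0.97 and 0.88.

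These counts rested on single arrays more than the erythroid ones. Without TAK1-deleted replicate 1 the G1/S count was 2 and the G2/M count 3, without wild type replicate 1 they were 5 and 3, and without wild type replicate 2 they were 6 and 5. The erythroid lists rose in the same arrays, at mean levels given above, and the part of red cell precursors in the cell cycle genes was not tested. Myc (0.24 ± 0.15) and Ccnd2 (-0.52 ± 0.17), growth genes of activated B cells, were not called, and of 30 genes of ribosome biogenesis 0 were called (median 0.11). With the block, Ccnd2 was called lower (adjusted p = 0.007864).

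The start regions of the G2/M genes that rose were searched for the cell cycle word TTTGAA or TTCGAA (the core of the CHR element, with TTCGAA reading the same on both strands). All 7 with a window held it, against 13.8% of the windows of tested genes and 19.4% of all windows used. The word CCAAT was in 6 of the 7 (85.7%), against 38.3% of the windows of tested genes. The windows of Ccnb2 (chr9:70421505-70421804, minus strand) and Plk1 (chr7:122159185-122159484, plus strand), in GRCm38.p6 from RefSeq, are shown as the 2 of largest rise that hold the CHR word, which is in capitals.
Ccnb2: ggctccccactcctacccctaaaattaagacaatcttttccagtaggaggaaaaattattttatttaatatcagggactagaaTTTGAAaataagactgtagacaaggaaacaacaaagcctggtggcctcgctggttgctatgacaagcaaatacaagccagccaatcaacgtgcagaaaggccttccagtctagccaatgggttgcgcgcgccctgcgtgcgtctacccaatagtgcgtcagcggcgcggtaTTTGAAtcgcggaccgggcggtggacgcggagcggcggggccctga
Plk1: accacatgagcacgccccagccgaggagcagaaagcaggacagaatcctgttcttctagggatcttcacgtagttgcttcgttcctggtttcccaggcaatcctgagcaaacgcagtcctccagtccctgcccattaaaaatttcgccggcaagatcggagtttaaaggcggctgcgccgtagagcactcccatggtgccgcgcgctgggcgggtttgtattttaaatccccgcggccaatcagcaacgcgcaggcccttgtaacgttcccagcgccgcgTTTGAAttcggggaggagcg

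Of 21 neutrophil genes tested 4 rose and 1 fell, with a median of -0.15, and with the block 7 rose and 7 fell. Over all genes 1.5% rose and 0.794% fell, and with the block 4.09% rose and 2.87% fell. The 4 that rose encode granule proteins that are made at the promyelocyte stage. Mpo, myeloperoxidase, had 10.43 and 10.29 in TAK1-deleted cells, against 8.58 and 8.53 in wild type cells (1.81 ± 0.15, adjusted p = 2.316e-06). Ctsg (cathepsin G), Elane (neutrophil elastase) and Prtn3 (proteinase 3) rose by 1.54 ± 0.16, 1.40 ± 0.27 and 0.99 ± 0.13. Ctsg passed the filter only through TAK1-deleted arrays. Retnlg, a secreted protein of mature neutrophils, had 8.81 and 8.79 in TAK1-deleted cells, against 9.98 and 9.73 in wild type cells (-1.05 ± 0.14, adjusted p = 0.0002393). S100a8 (-0.51 ± 0.23) and S100a9 (-0.57 ± 0.19), calprotectin genes of mature neutrophils, were not called, but both were called lower with the block (adjusted p = 0.04144 and 0.02777). Siglech, a lectin of plasmacytoid dendritic cells, rose by 0.94 ± 0.19. It was the only one called of 18 dendritic cell genes, of which 9 were positive and 9 negative (median 0.01). Cd209a of that list gave -0.58 ± 0.20, and with the block 1 of the 18 rose and 1, Cd209a, fell. Of 30 macrophage genes only the monocyte chemokine receptor Ccr2 was called (-0.91 ± 0.20), while with the block 1 rose and 3 fell.

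The largest fall of all was in Jchain, the joining chain that links IgM and IgA into polymers in antibody-secreting cells. It had 6.67 and 6.59 in TAK1-deleted cells, against 11.93 and 11.95 in wild type cells (-5.31 ± 0.14, 39.8-fold lower, adjusted p = 1.382e-12). The TAK1-deleted arrays were thus below the median of all probe sets (7.45), and the wild type arrays among the brighter ones. Derl3, of the plasma cell secretory apparatus, fell by 1.11 ± 0.25, and Sdc1 (CD138), the plasma cell surface marker, fell by 0.56 ± 0.14 (adjusted p = 0.04016). The other plasma cell genes moved less: of 16 tested 3 fell (10 with the block), all 16 were negative, and the median was -0.35. Among all genes tested 0.794% fell, and 2.87% with the block. Without TAK1-deleted replicate 2, and likewise without wild type replicate 1, only 1 of the 3 calls was made. Prdm1 (-0.73 ± 0.28) and Xbp1 (-0.37 ± 0.14), the factors of plasma cell fate, were not called, and were called lower with the block (adjusted p = 0.0008216 and 0.01028). Ighm had 11.32 and 11.32 in TAK1-deleted cells, against 11.79 and 11.93 in wild type cells, and was called with the block (-0.54 ± 0.18, adjusted p = 0.195 without it and 0.02833 with it).

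Genes of NK and T cells were lower in TAK1-deleted cells. Of 23 NK genes 12 fell and 0 rose (median -0.93), against 0.794% of all genes falling. With the block 20 of the 23 fell, against 2.87% of all genes. The 23 averaged 8.39 and 8.22 in TAK1-deleted cells and 9.28 and 9.08 in wild type cells. Klrb1c (NK1.1) had 6.83 and 6.97 in TAK1-deleted cells, against 8.37 and 8.17 in wild type cells (-1.37 ± 0.17, adjusted p = 0.0001668), and Klra8, an activating Ly49 receptor, had 7.17 and 7.14 in TAK1-deleted cells, against 8.58 and 8.53 in wild type cells (-1.40 ± 0.23). Klrd1 and Klrk1, lectin receptors of the same gene cluster, each fell by 1.13 ± 0.20. Klrb1c and Klra8 passed the filter only through wild type arrays. Probes of closely related Ly49 and Klr genes may share signal, which the deposited values do not resolve. Without TAK1-deleted replicate 2 the NK count was 5, and without wild type replicate 1 it was 4.

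Of 25 T cell genes 7 fell and 0 rose (median -0.62, all 25 negative), and with the block 18 fell. The share of all genes that fell was 0.794%, and 2.87% with the block. Cd3g, of the T cell receptor complex, had 9.43 and 9.35 in TAK1-deleted cells, against 10.54 and 10.52 in wild type cells (-1.14 ± 0.15, adjusted p = 0.0002408). Thy1, Cd8b1 and Cd3d fell by 1.03 ± 0.19, 0.94 ± 0.17 and 0.90 ± 0.13. The arrays of the genotypes did not overlap for these 4 genes. Without TAK1-deleted replicate 2 or without wild type replicate 1 the count was 2. Cd4 (-0.19 ± 0.24) and Cd8a (-0.39 ± 0.21) were not called. Spn, which encodes CD43, the target of the depletion, had 8.69 and 8.76 in TAK1-deleted cells, against 9.28 and 9.18 in wild type cells (-0.51 ± 0.13, adjusted p = 0.05381, or 0.008428 with the block).

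Other falls were spread over several functions. Hspa1a, the inducible heat shock protein 70, had 8.55 and 8.10 in TAK1-deleted cells, against 10.35 and 10.03 in wild type cells (-1.86 ± 0.21, adjusted p = 9.626e-05). It was the only one of 10 heat shock genes called, against 3 with the block. Over all genes 1.5% rose and 0.794% fell, and with the block 4.09% rose and 2.87% fell. Nid1, a basement membrane glycoprotein, had 7.50 in both TAK1-deleted arrays, against 9.31 and 9.05 in wild type cells (-1.68 ± 0.12). Ifi208, of the interferon-inducible p200 family, had 9.0 and 8.48 in TAK1-deleted cells, against 10.82 and 9.92 in wild type cells (-1.63 ± 0.35, adjusted p = 0.01957). For these 3 genes the arrays of the genotypes did not overlap. Wfdc17, Cd96 (a receptor of T and NK cells) and Il18r1 (the interleukin 18 receptor) fell by 1.39, 1.38 and 1.38. Rgs13 and Mybl1, both expressed in germinal centre B cells, fell by 1.43 ± 0.26 and 1.40 ± 0.24. Of the 13 germinal centre and class switch genes these 2 and the death receptor Fas were called, all lower (median -0.31), against 0.794% of all genes falling. Fas was below the overall median (7.45) in each unstimulated array. Without wild type replicate 1 the count was 0, and with the block 6 fell and 1 rose. Tbx21 (T-bet, a factor of NK, Th1 and atypical B cells) fell by 0.91 ± 0.12 and was the only one called of 14 B-1 and atypical B cell genes (median -0.52). It is in the NK list too. With the block 8 of the 14 fell, against 2.87% of all genes.

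The lists of TAK1 and NF-κB pathway components held no call without the block. With 2.29% of all genes called, lists this short may hold none. Map3k7, the deleted gene, had 10.60 and 10.40 in TAK1-deleted cells, against 10.32 and 10.16 in wild type cells (0.26 ± 0.14, adjusted p = 0.7238). The part of the gene that its probe set reads is not given in the sources used here, so this value does not check the deletion. Of 20 genes of the TAK1 and IκB kinase complexes 0 were called (differences of -0.21 to 0.36, median -0.02), and of 15 NF-κB subunits and inhibitors 0 (-0.37 to 0.04, median -0.13), against 1 lower with the block, Nfkbiz (adjusted p = 0.04469). Rel had 12.70 and 12.60 in TAK1-deleted cells, against 12.83 and 12.65 in wild type cells, and Nfkbia (IκBα) had 11.48 and 11.41 in TAK1-deleted cells, against 11.56 and 11.59 in wild type cells. Neither differed by more than 0.13. Nfkb1 and Chuk were not analysed here.

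Of 42 NF-κB target genes 2 fell and 0 rose (median -0.12, 31 negative and 11 positive), against 0.794% of all genes falling. With the block 10 fell, against 2.87% of all genes. Ccl5, a chemokine that NK and T cells also make and that stands in the NK list as well, had 11.11 and 11.09 in TAK1-deleted cells, against 12.12 and 11.98 in wild type cells (-0.95 ± 0.12). Fas had 6.56 and 6.46 in TAK1-deleted cells, against 7.42 and 7.23 in wild type cells (-0.82 ± 0.19). All these values lay below the overall median (7.45), and Fas passed the filter only through stimulated wild type arrays (8.91 and 8.15 at 1 h). Of 29 immediate early genes 0 were called (median -0.25, 24 negative and 5 positive), and with the block 9 fell, against 2.87% of all genes. Among the 9 were Dusp1, a MAP kinase phosphatase (-0.99 ± 0.30), and Jun (-0.71 ± 0.22), at blocked adjusted p of 0.0008417 and 0.0008371. Among 11 survival genes 0 were called, against 1 higher and 1 lower with the block: Bcl2 gave -0.08, Bcl2l1 0.08 and Mcl1 -0.05. The direction of these 3 and of Rela, Nfkb2, Ikbkb, Tab2 and Tab3 turned when 1 array was left out.

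Counts for B cell subset and antigen presentation genes were low, as for genes at large (2.29% called). Of 6 follicular genes, 16 marginal zone genes, 10 transitional genes, 10 MHC class II genes and 23 B cell receptor signalling genes 0 were called. With the block 2 rose and 2 fell of the transitional genes, 2 fell of the marginal zone genes, and 1 rose of the MHC class II genes. That fit called 4.09% of all genes higher and 2.87% lower. Cr2 (CD21), high on marginal zone cells, had 12.59 and 12.49 in TAK1-deleted cells, against 12.67 and 12.57 in wild type cells, and Fcer2a (CD23) gave -0.04 ± 0.24. The 4 transitional genes were Cd93 (0.48 ± 0.14, adjusted p = 0.00559 with the block) and Vpreb3 (0.51 ± 0.17), higher, and Lef1 (-0.55 ± 0.17, adjusted p = 0.004586 with the block) and Spn, lower. The 2 marginal zone genes were Cd9 (-0.51 ± 0.15) and Fcrl5 (-0.69 ± 0.27), and the MHC class II gene was Ifi30 (0.46 ± 0.18), a lysosomal thiol reductase. Il9r, the interleukin 9 receptor, was the one called gene of the surface activation list, with 11.30 and 11.28 in TAK1-deleted cells, against 10.58 and 10.53 in wild type cells (0.73 ± 0.14), and with the block 1 rose and 5 fell of the 20.

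**Figure D4:**
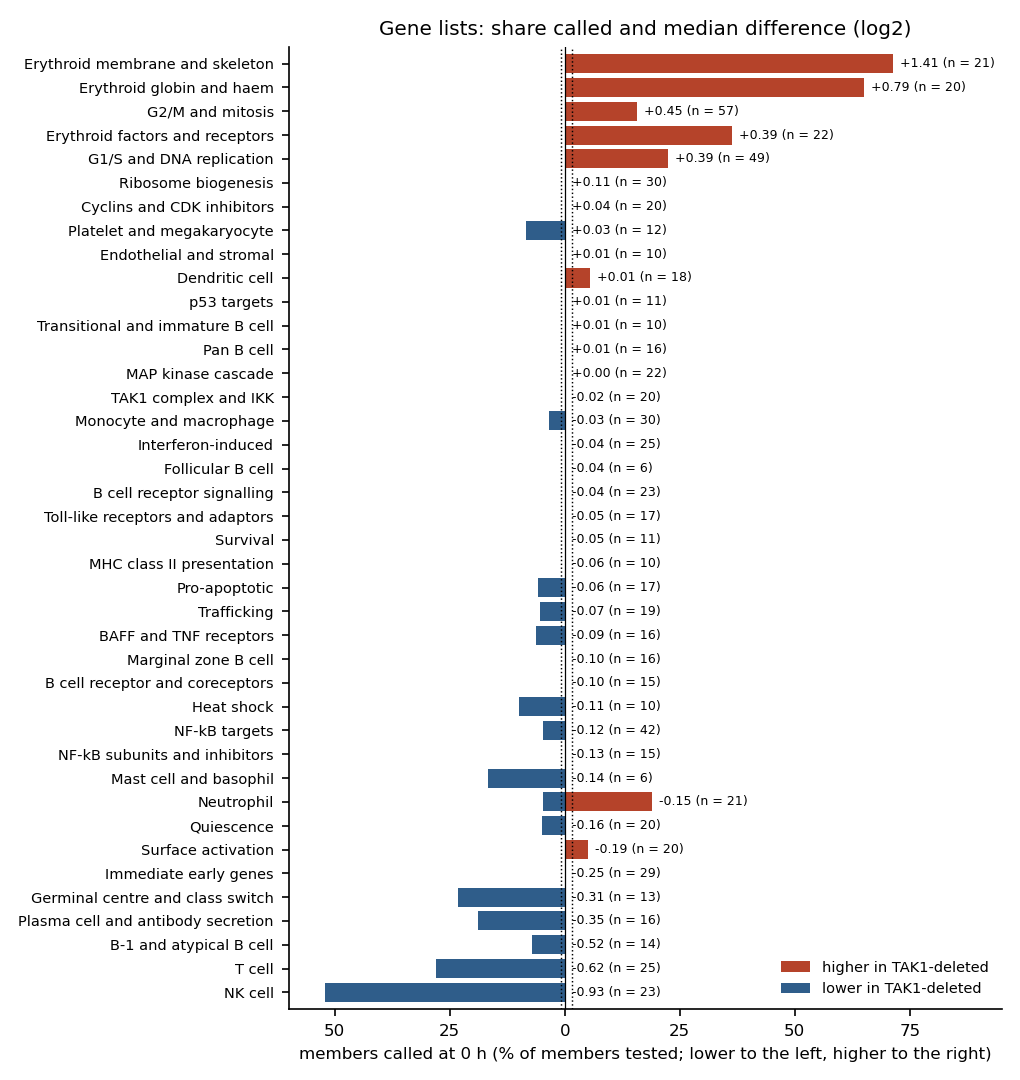
Bars give the share of each gene list called at 0 h (% of members tested), higher in TAK1-deleted cells to the right and lower to the left, with the list's median difference (log2) and number tested beside it and dotted lines at the shares over all genes (1.5% and 0.794%). The 3 erythroid lists, the 2 cell cycle lists and the neutrophil list have the longest bars to the right, and the NK and T cell lists the longest to the left.

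Few genes were called near Map3k7, the deleted gene, or near Cd79a, which the labels of both genotypes name. Of 51 genes tested within 10 Mb of Map3k7 on chromosome 4, 0 were called. Of 246 within 10 Mb of Cd79a on chromosome 7, 1 was called, Blvrb, a biliverdin reductase of the haem list (0.57 ± 0.12, 2.55 Mb away). The share called by chromosome was 1.15% to 3.95%.

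The later arrays entered the filter and the estimate of the spread behind the 0 h calls, but not the 0 h differences. They show how far the same genes differed under anti-IgM (10 µg/ml), which engages the antigen receptor of B cells. At 1 h, 144 of the 179 higher and 60 of the 95 lower genes were called in the same direction, where 4.24% of all genes were called (2.06% higher, 2.18% lower). By 3 h these were 60 of 179 and 43 of 95, with 2.65% of all genes called (0.987% higher, 1.66% lower). By 6 h these were 39 and 34, with 2.48% called (0.912% higher, 1.56% lower). By 24 h these were 36 and 12, with 12.2% called (7.03% higher, 5.15% lower). That is 74.5%, 37.6%, 26.6% and 17.5% of the genes called at 0 h, and 40.2%, 32.5%, 24.7% and 3.29% of the genes called at those times (507, 317, 296 and 1457). At 24 h 29 of the 179 were lower and 32 of the 95 higher in TAK1-deleted cells.

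The erythroid membrane genes had median differences of 1.41 at 0 h, 1.36 at 1 h, 0.90 at 3 h, 0.46 at 6 h and 0.02 at 24 h, over all 21. The G2/M genes had 0.45, 0.56, 0.14, -0.13 and -0.93 at the same times, and at 24 h 48 of the 57 were lower in TAK1-deleted cells, against 5.15% of all genes. The T cell genes had -0.62, -0.90, -0.58, -0.48 and 0.38, and the NK genes -0.93, -1.13, -0.95, -0.80 and 0.06. So the erythroid, T and NK differences were smaller or turned by 24 h, and the cell cycle difference turned. Called changes of the difference from 0 h to 24 h numbered 1037 (553 up and 484 down, 8.67% of genes), against 0.109% at 1 h, 0.0585% at 3 h (all down at both times) and 0.284% at 6 h (0.092% up, 0.192% down). They held 14 of the 21 erythroid membrane genes and 49 of the 57 G2/M genes, all down, and 15 of the 25 T cell genes, all up, against 4.05% of all genes down and 4.62% up. The 0 h arrays enter this change as well as the 0 h calls.

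A small set differed throughout. Of the 274 genes, 23 were called in the same direction at all 5 times, 16 higher and 7 lower in TAK1-deleted cells. BC018473 lay between 9.56 and 11.41 in the 10 TAK1-deleted arrays and between 6.33 and 6.79 in the 10 wild type arrays. Ctse lay between 11.91 and 13.13 in TAK1-deleted arrays and between 7.04 and 10.40 in wild type arrays. Jchain lay between 6.22 and 6.8 in TAK1-deleted arrays at all times, against 11.03 to 11.95 in wild type arrays up to 6 h and 8.98 and 8.56 at 24 h. For these 3 genes the genotypes did not overlap at any time. The other higher genes include Mpo, Ctsg, Prtn3, Alas2, Siglech and Il9r, and the other lower ones include Tbx21, Hgsnat (a lysosomal acetyltransferase) and 1810046K07Rik.

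**Figure D5:**
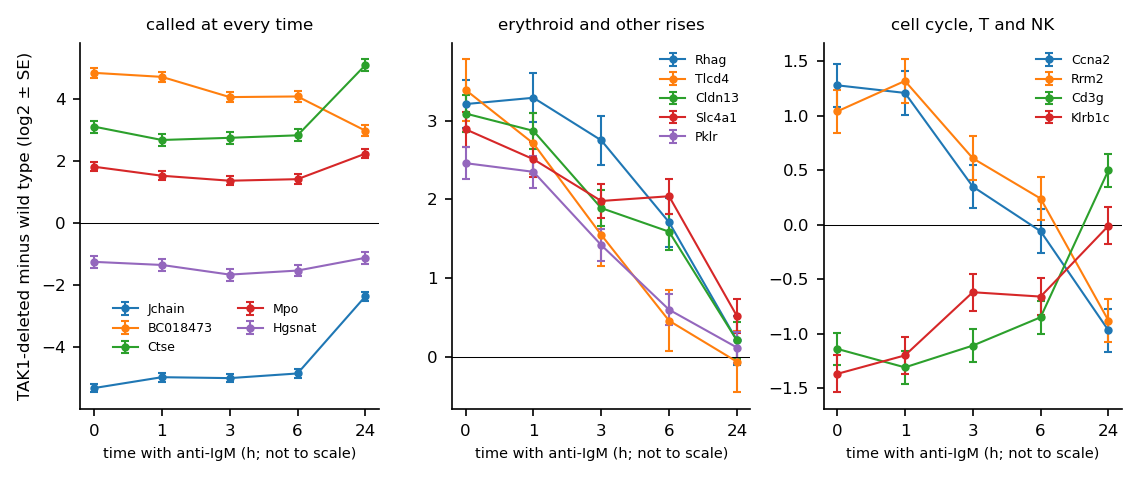
The TAK1-deleted minus wild type difference (log2, ± SE from the fit) is plotted for named genes at 0, 1, 3, 6 and 24 h of anti-IgM (time not to scale, y axes differ). Jchain stays below 0 and BC018473, Ctse and Mpo above it at every time, Rhag reaches 0.21 at 24 h, and Ccna2 reaches -0.97.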

How the data were processed

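Expression in 20 arrays of mouse splenic B cells was read from the deposited table, whose log2 values the authors deposited. The submitters' processing notes name RMA and Affymetrix Expression Console 1.0 for it. The genome build is not given in the sources used here. Of 35556 probe sets, 21789 carry 1 gene symbol in the platform annotation, 1621 several, and 12146 are not listed. Probe sets that reached the overall median (7.45) on 2 or more arrays were kept, the brightest represented a gene, and sex-marking X and Y genes were left out, which gave 11958 genes. A gene dim in either genotype could thus enter through the arrays of the other alone.

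Group means of all 20 arrays entered 1 fit (limma 3.58.1, R 4.3.3; intensity trend, two-sided, Benjamini-Hochberg within each contrast), tested on simulated data. The simulated arrays were independent of each other, so that test does not cover deviations shared by same-numbered arrays. Residual and prior degrees of freedom were 10 and 5.47. Replicate numbers come from the labels. Deviations of same-numbered arrays correlated at 0.191 to 0.769 over 45 pairs of groups (0.769 at 0 h), so the numbers were taken to pair the arrays, and the blocked value is given where it changes a call or moves a count by over 1.5 times. Alternatives covered the filter, scaling, probe set choice, trend, sex genes, the 4 arrays alone and each array left out.

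The 40 gene lists, from textbook roles, the comparison and its rules were chosen with earlier results of these data known. Named were the 15 largest rises and falls and up to 6 called members of a list (3 leading members where fewer than 3 were called). A panel of B cell and pathway genes and called genes near Map3k7 and Cd79a were named as well. Among genes called at 0 h only, up to 5 with the largest called change of the difference were named at each later time. Members of a list that are given for contrast, and any gene beyond these, were picked after their values were seen.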

Additional observations from a re-analysis of the deposited data

Results flagged for a closer look

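The genotype difference itself changed between 0 h and later times for many of the genes called at 0 h, by an interaction contrast in the same limma fit. The difference shrank for 1 gene by 3 h (Jhy), for 16 by 6 h and for 182 by 24 h, and it grew for 4 by 24 h. The 0 h values behind the calls also enter the change, which favours a difference that shrinks over one that grows. Over all genes the change by 24 h was called up for 4.62% and down for 4.05%. Among the 0 h calls, the 5 largest called changes by 24 h were -3.46 (Tlcd4), -3.00 (Rhag), 2.95 (Jchain), -2.88 (Cldn13) and -2.75 (Asns, asparagine synthetase). Asns had 10.35 and 9.64 in TAK1-deleted cells at 0 h, against 8.19 and 7.93 in wild type cells, and its difference at 24 h was -0.82, which was not called (adjusted p = 0.05697). The Jchain difference was -5.31 at 0 h and -2.36 at 24 h, and it was the wild type level that was lower at 24 h (8.98 and 8.56, against 11.93 and 11.95 at 0 h).

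The 4 differences that grew were those of Ctse (by 1.97), Siglech (by 1.14), Ctsl, the lysosomal protease cathepsin L (by 0.99), and Tnfaip2 (by 0.79). At 24 h they were 5.08, 2.07, 1.59 and 1.32. The neutrophil list had a median of -0.15 at 0 h and 1.61 at 24 h, and the monocyte and macrophage list of -0.03 and 1.28; their part in these 4 changes was not tested.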

How the results depend on the processing

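Of 82 named genes called at 0 h, 45 kept their call under every alternative that tested them and 0 changed direction. Sdc1, Blvrb, Ccr2, Il9r, Siglech and Fas were among those that lost their call under more alternatives than Tfrc did. The count of genes called at 0 h (274) was 832 with the replicate block, 146 from the 4 arrays alone, 133 with the stricter filter, which tests 7094 genes, 447 with centred arrays, 551 with quantile normalization, and 114 to 192 with 1 array left out. Changes of the difference at 24 h (1037) numbered 2631 with the replicate block, 1763 centred, 1832 with quantile normalization, and 683 to 956 with 1 array left out (683 without TAK1-deleted 24 h replicate 2). Genes called at all 5 times (23) numbered 63 with the replicate block, 38 with quantile normalization and 17 to 20 with 1 array of 0 h left out. The cause was not tested, except that fewer arrays or genes enter some of these fits.

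Some differences not called turned with 1 array left out: Icosl (-0.08 to 0.26), Nfkb2 (-0.12 to 0.20), Tab2 (-0.11 to 0.18), Tab3 (-0.01 to 0.33), Tlr3 (-0.13 to 0.67), Bcl2 (-0.18 to 0.03), Fcer2a (-0.23 to 0.15), Ikbkb (-0.38 to 0.04), Ikbke (-0.51 to 0.09), Mcl1 (-0.12 to 0.02), Rela (-0.26 to 0.04), Bcl2l1 (-0.04 to 0.21), Ccr7 (-0.15 to 0.02), Dapp1 (-0.56 to 0.04), Stab2 (-0.11 to 0.35) and Tnfaip3 (-0.34 to 0.05). Quantile normalization turned Fcer2a (0.02) and Ms4a1 (0.02). Signal over background was not used here, and 2 arrays per group limit what could be called.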

Other observations

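The genes named here stand outside the lists and were picked after their values were seen, so they show no change of a gene group. Of fatty acid desaturase genes on chromosome 19, Fads2 had 10.59 and 10.17 in TAK1-deleted cells, against 8.49 and 8.52 in wild type cells (1.88 ± 0.21), Fads3 rose by 1.30 ± 0.20 and Fads1 by 0.64 ± 0.16. Gclm, a subunit of the enzyme of glutathione synthesis, rose by 1.13 ± 0.19, Nqo1, a quinone reductase, by 0.83 ± 0.19, and Prdx2, a peroxiredoxin abundant in red cells, by 0.63 ± 0.11. The linker histone gene H1f1 had 11.38 and 11.89 in TAK1-deleted cells, against 9.85 and 10.41 in wild type cells (1.5 ± 0.21).

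Il1b, an inflammatory cytokine of myeloid cells, had 9.84 and 9.48 in TAK1-deleted cells, against 10.62 and 10.32 in wild type cells (-0.81 ± 0.15), and the chemokines Ccl6 and Ccl9 gave -1.12 ± 0.15 and -0.78 ± 0.13. Cyp51 and Msmo1, enzymes of cholesterol synthesis, gave -0.92 ± 0.19 and -0.70 ± 0.16. The Schlafen genes differed in sign, with Slfn9 at 1.04 ± 0.18 and Slfn8 and Slfn5 at -0.92 ± 0.15 and -0.68 ± 0.17.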
